A study of Mus musculus with 30 samples.

Results

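Collagens are the main structural proteins of the extracellular matrix, and each is a triple helix of 3 polypeptide chains, every chain the product of its own gene. The collagen chain genes described here are all genes of the count table whose symbol has the form Col, a type number, the letter a and a chain number. There were 44 such genes among the 21841 in the table, and 39 of them had 10 or more counts in at least 5 of the 30 libraries. The remaining 5 (Col4a3, Col6a4, Col19a1, Col22a1 and Col24a1) fell below that limit and were not tested. The fibrillar chains numbered 11, of which 10 were above the limit, the basement membrane chains 8, of which 7 were, and the other chains 25, of which 22 were.

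Fibrillar collagens (types I, II, III, V, XI, XXIV and XXVII) assemble into the fibrils that give stroma its tensile strength, and type V and type XI chains help to set the diameter of those fibrils. Type IV collagen forms the sheet-like network of basement membranes beneath epithelium and around vessels, and types XV and XVIII are anchored in or next to the same layer. Among the others, type VI forms beaded filaments, the FACIT collagens (fibril-associated collagens with interrupted triple helices, such as types IX, XII, XIV and XVI) decorate fibrils, types VIII and X form hexagonal networks, type VII forms anchoring fibrils, and types XIII, XVII, XXIII and XXV are transmembrane proteins. In mammary tumours fibrillar collagens are known chiefly as products of fibroblasts.

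The libraries were bulk RNA-seq of mammary tumours of MMTV-PyMT mice, in which the mammary tumour virus promoter drives the polyoma middle T oncogene in mammary epithelium so that tumours arise spontaneously. All 30 tumours carried the strain label FVB/N-Tg(MMTV-PyVT)634Mul/J and the genotype label WT, and ages were not labelled. The 6 groups of 5 libraries each were vehicle, 5-FU (5-fluorouracil, a pyrimidine analogue, 40 mg/kg every 4 days), gemcitabine (a nucleoside analogue, 64 mg/kg every 7 days), KCL-HO-1i (25 µmol/kg every day) and the 2 combinations of KCL-HO-1i with either drug at those doses, written KCL-HO-1i/5-FU where the drug was 5-FU and otherwise KCL-HO-1i/gemcitabine, all for 72 h as labelled; in the study's own text the treatment is shorter and the dose of gemcitabine is lower. The compound KCL-HO-1i blocks heme oxygenase-1, which degrades heme and is made by macrophages of such tumours. The study describes cohorts of mice. The sample codes in the labels differ for all 30 libraries but share 13 leading numbers. Several of these numbers occur in more than 1 treatment group, so they do not mark single animals. The labels do not say whether libraries with the same number within a group came from 1 animal. The p-values therefore measure the spread between these libraries.

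Library totals ran from 10067577 to 13622264 counts. Levels are given as CPM, counts scaled to 1000000 per library, adjusted by trimmed mean of M values (TMM), and values of a group are listed in the order of its replicate numbers. The summed level of 5 luminal epithelial markers (Epcam, Krt8, Krt18, Cdh1 and Elf5) was between 2186 and 5112 CPM, so the labelled mammary tissue carried its defining markers in all 30 libraries. Luminal levels were lowest in KCL-HO-1i/5-FU replicate 3 and next lowest in KCL-HO-1i/gemcitabine replicate 2, at 2310 CPM, and these 2 libraries also held the 2 highest fibroblast sums (7 genes, 3168 and 2392 CPM). The averages of the chains named with every library, and the list counts, are given with and without them.

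All 30 libraries held collagen transcripts, and the 44 genes took between 0.108% and 1.55% of a library's counts, with a median of 0.369%. In the vehicle group the share was 0.260% ± 0.088 (SD, n = 5), and in the KCL-HO-1i/gemcitabine group it was 0.597% ± 0.540 (SD, n = 5), a spread set by 1 library at 1.55%. By counts, fibrillar chains made up 26.7% ± 10.2 (SD, n = 5) of the collagen counts in vehicle tumours, basement membrane chains 22.5% ± 10.9 and the other chains 50.8% ± 5.39. In bulk RNA, fewer cells of a type and less RNA per cell cannot be told apart.

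Type IX collagen, a FACIT best known from cartilage, was the most abundant collagen of the vehicle tumours for its length. Divided by transcript length, Col9a1 had a median of 167 CPM per kilobase in the 5 vehicle libraries (40.8 to 212), Col9a2 a median of 102 (10.5 to 126) and Col9a3 a median of 46.3 (14.1 to 56.3). Next in order came Col11a1 at a median of 37.4 CPM per kilobase, Col3a1 at 35.9, Col1a2 at 29.4 and Col1a1 at 24.9. The 3 chains of type IX took 35.8% ± 9.73 (SD, n = 5) of all collagen counts there. Neighbours in the order overlapped in their vehicle ranges in 36 of 38 cases, so most of the order is not separated beyond the spread of 5 libraries. Across all 30 libraries Col9a1 had the most counts of the 44 genes in 17, Col3a1 in 11, Col4a1 in 1 and Col11a1 in 1. Col2a1, which encodes the cartilage fibril chain that type IX normally coats, had a vehicle median of 0.783 CPM per kilobase, and 5 cartilage markers summed to 0.264 to 49.0 CPM in vehicle, with Acan, Matn1 and Matn3 below the limit for testing.

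**Figure D1:**
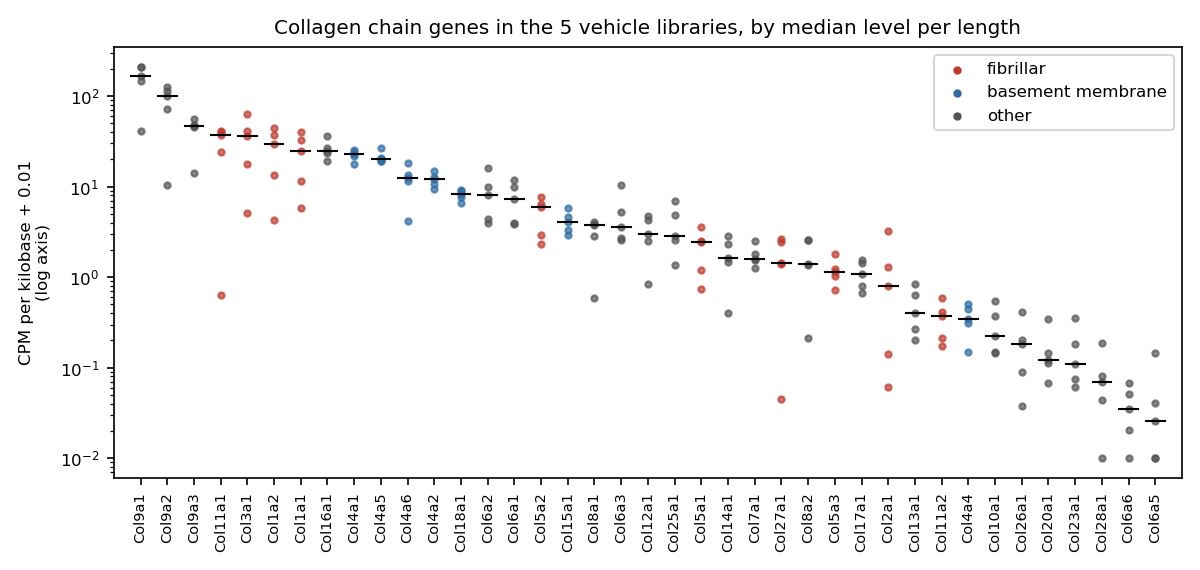
The plot of levels per length shows the 39 reported collagen genes in the 5 vehicle libraries, as CPM per kilobase of transcript plus 0.01 on a log axis, with 1 point per library, a line at the median and colours for the 3 classes. Col9a1 lies furthest left with a median of 167 CPM per kilobase, followed by Col9a2 and Col9a3.

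Of the 39 reported collagen chains 34 had a fitted fold change above 0 in tumours that had received KCL-HO-1i (49.8% of all genes tested did), but no chain passed a false discovery threshold of 0.05 in any of the 8 comparisons made with edgeR. The average difference with against without KCL-HO-1i, taken over the vehicle, 5-FU and gemcitabine backgrounds, had a median log2 fold change of 0.74 over the 39 reported chains, against a median near 0 over all 13663 genes tested. In that comparison 0 chains passed the adjusted threshold (0.0586% of all genes did), 17 chains were higher at an unadjusted p under 0.05 (13.7% of all genes were higher at that level and 23.0% in either direction) and 0 were lower. Fibrillar chains accounted for 7 of those 17, basement membrane chains for 3 and the other chains for 7. DESeq2 called 7 chains at an adjusted p under 0.05 (8.34% of all genes), namely Col5a2, Col5a3, Col8a1, Col3a1, Col5a1, Col6a2 and Col6a1, all higher, and limma-voom called 0 (1.95% of all genes), with 6 chains at an unadjusted p under 0.05. Without KCL-HO-1i/5-FU replicate 3 and KCL-HO-1i/gemcitabine replicate 2, a choice made after the values were seen, the edgeR count at an unadjusted p under 0.05 was 3, all higher. Of all genes 7.18% were then higher and 7.51% lower at that level, and the median log2 fold change of the chains was 0.27. Without gemcitabine replicate 5, the library with the highest stromal collagen of its group, edgeR called 9 chains, Col5a2, Col3a1, Col5a3, Col6a2, Col5a1, Col6a1, Col14a1, Col23a1 and Col1a2. With the leading number of the sample code as a factor, 3 chains had an unadjusted p under 0.05. Only a single vehicle library shares its leading number with a treated library. Code and treatment are therefore nearly confounded, and that setting cannot tell them apart. Shares of all genes are not given for the settings with the sample code or with a single library left out. Nor are they given, here or below, for limma-voom at an unadjusted p under 0.05.

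**Figure D2:**
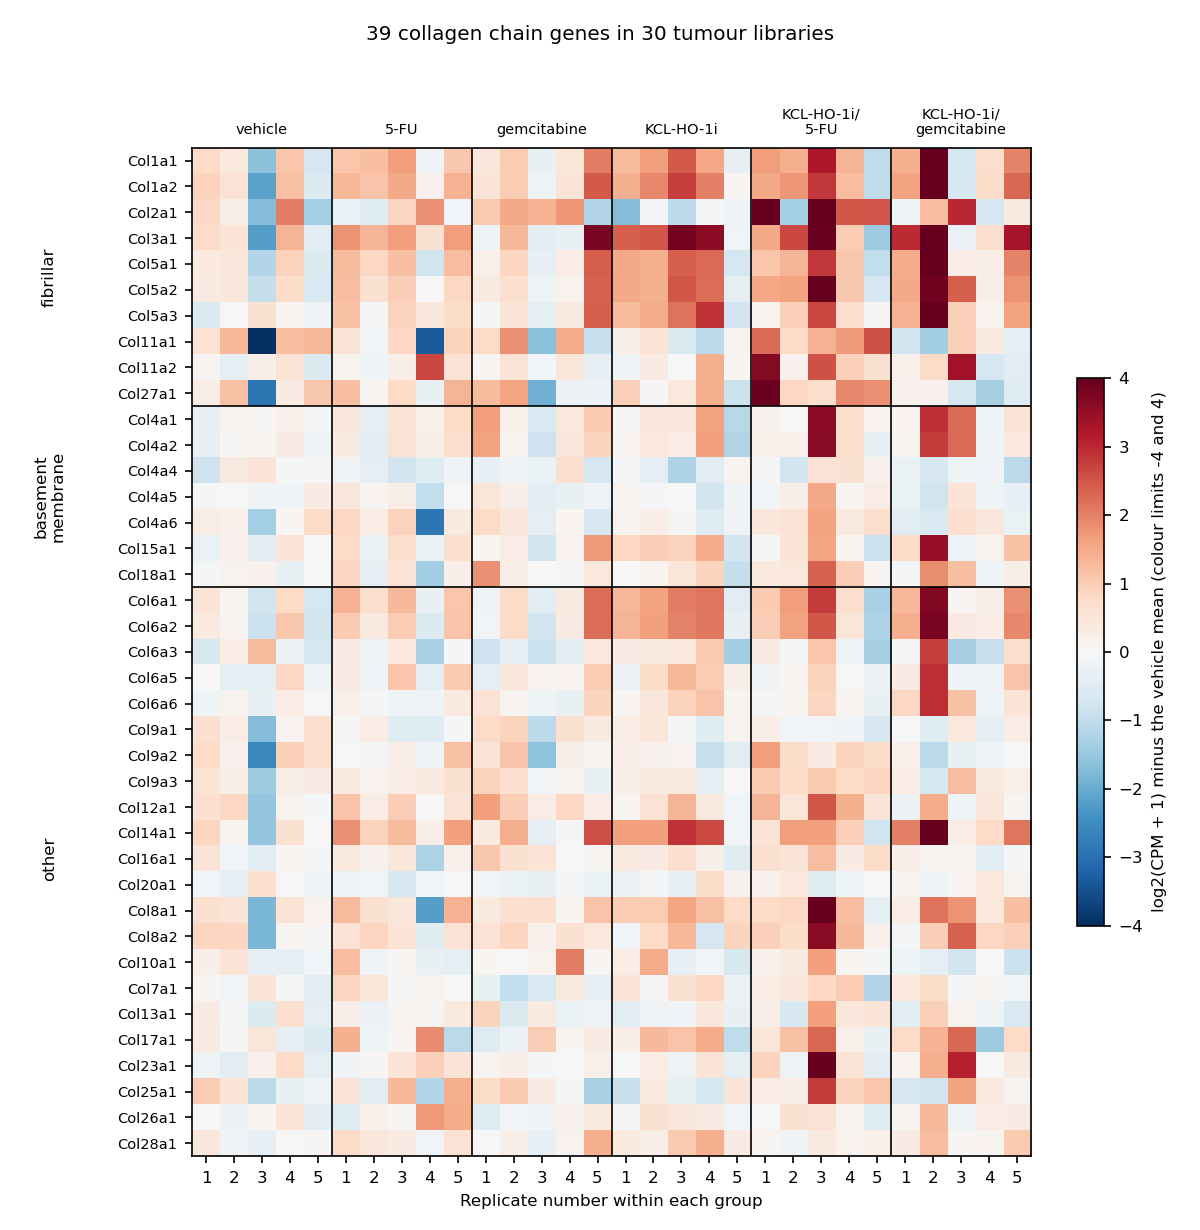
The heat map shows 39 collagen genes (rows, by class) in the 30 libraries (columns, by group and replicate number) as log2(CPM + 1) minus the vehicle mean, with colours saturated at -4 and 4. Columns of KCL-HO-1i/5-FU replicate 3 and KCL-HO-1i/gemcitabine replicate 2 hold most of the darkest red, vehicle replicate 3 and 5-FU replicate 4 hold the darkest blue cells, in Col11a1 and in Col27a1 or Col4a6, and the type IX rows vary less than the type I and III rows.

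With either chemotherapy alone no collagen chain differed from vehicle at an unadjusted p under 0.05 in edgeR. Most chains nonetheless had a fold change above 0, as they did with KCL-HO-1i alone. With 5-FU, 0 chains passed the adjusted threshold (0.0% of all genes) and 0 had an unadjusted p under 0.05 (3.89% of all genes, 1.65% higher and 2.24% lower) in edgeR, and DESeq2 and limma-voom also called 0. The median log2 fold change of the 39 chains was 0.37, with 33 of them above 0 (50.2% of all genes were). With gemcitabine, 0 chains passed at the adjusted threshold (0.0% of all genes) and 0 at an unadjusted p under 0.05 (3.83% of all genes, 2.05% higher and 1.78% lower) in edgeR, DESeq2 and limma-voom called 0, and the median was 0.49 with 32 above 0 (55.5% of all genes). With KCL-HO-1i alone, 0 chains passed the adjusted threshold (0.0% of all genes) in edgeR, 0 in DESeq2 (0.871% of all genes) and 0 in limma-voom (0.0%), while 8 were higher at an unadjusted p under 0.05 (7.36% of all genes were higher and 9.43% in either direction, 2.08% lower). The median was 0.51, with 29 above 0 (47.9% of all genes). That count was 2 without KCL-HO-1i replicate 4. With the leading number of the sample code as a factor the 3 medians turned, to -0.36 with 5-FU, -0.79 with gemcitabine and -0.01 with KCL-HO-1i. In that setting vehicle is tied to the treated groups through a single vehicle library, so these medians cannot separate code from treatment.

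The combinations stood further from vehicle, and single libraries had a large part in each. With KCL-HO-1i/5-FU, edgeR called 0 chains (0.0% of all genes), 15 were higher at an unadjusted p under 0.05 (9.79% of all genes were higher, 7.84% lower and 17.6% either), and the median log2 fold change was 1.12 with 36 above 0 (51.4% of all genes). DESeq2 called 4 (2.99% of all genes), Col8a1, Col2a1, Col5a2 and Col11a2, and limma-voom 0 (1.24%), with 6 at an unadjusted p under 0.05. Without KCL-HO-1i/5-FU replicate 3 the count of 15 was 5 and the median was 0.52. With KCL-HO-1i/gemcitabine, edgeR called 0 chains (0.0% of all genes), 16 were higher at an unadjusted p under 0.05 (11.7% of all genes were higher, 8.04% lower and 19.8% either), and the median was 1.07 with 30 above 0 (52.5% of all genes). DESeq2 called 10 (6.46% of all genes) and limma-voom 4 (9.68% of all genes), the latter being Col3a1, Col5a2, Col6a2 and Col14a1. Without KCL-HO-1i/gemcitabine replicate 2 the count of 16 was 3 and the median was 0.83. The median was lowest, at 0.73, without replicate 3 of that group. With the leading number of the sample code as a factor, which is nearly confounded with treatment, the counts of 15 and 16 were 0 and 2. The 5 comparisons against vehicle share the same 5 vehicle libraries.

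Col1a1, at chr11:94936224-94953042 (GRCm38) on the plus strand, encodes the alpha 1 chain of type I collagen, the main fibril protein of stroma, and stood at 193, 148, 34.2, 237 and 68.1 CPM in the 5 vehicle libraries, at 238, 255, 345, 99.2 and 231 with 5-FU and at 152, 222, 90.2, 153 and 454 with gemcitabine. With KCL-HO-1i, Col1a1 stood at 266, 355, 605, 319.6 and 87.8 CPM when given alone, at 349, 306, 1049, 281 and 54.3 with 5-FU and at 297, 1825, 67.4, 179.9 and 439.7 with gemcitabine. Vehicle replicate 3 was the lowest of the 30 and KCL-HO-1i/gemcitabine replicate 2 the highest, and every treated group overlapped the vehicle range. The average log2 fold change of Col1a1 with KCL-HO-1i was 1.15 ± 0.41 (SE), with an edgeR adjusted p of 0.101 and 11 of 15 libraries above the mean of their counterpart group. It was 0.51 ± 0.34 (SE) without the 2 libraries of lowest luminal level. Col1a2, the alpha 2 chain that joins 2 alpha 1 chains in the type I helix, stood at 199, 157, 22.7, 236 and 71.18 CPM in the 5 vehicle libraries, at 264, 233, 302, 117 and 277 with 5-FU and at 149, 213, 90.2, 150.01 and 569.8 with gemcitabine. With KCL-HO-1i, Col1a2 stood at 286, 399, 714, 421 and 109.6 CPM when given alone, at 302, 356, 739, 248 and 50.7 with 5-FU and at 318, 2015, 66.8, 173 and 513 with gemcitabine. The same libraries were extreme as for Col1a1. For Col1a2 the average log2 fold change was 1.13 ± 0.42 (SE), with an edgeR adjusted p of 0.111 and 12 of 15 libraries above the mean of their counterpart group. Without the 2 libraries of lowest luminal level that value was 0.56 ± 0.36 (SE).

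Col3a1, the type III chain that forms fibrils with type I in pliable tissue, at chr1:45311538-45349706 on the plus strand, stood at 229.5, 199.5, 28.4, 351 and 97.8 CPM in the 5 vehicle libraries, at 473, 346, 429, 206 and 438 with 5-FU and at 118, 339, 99.9, 111 and 1911 with gemcitabine. With KCL-HO-1i, Col3a1 stood at 708, 768, 1945, 1643 and 125 CPM when given alone, at 391, 876, 2118, 274 and 48.5 with 5-FU and at 1088, 7142, 114, 219 and 1326 with gemcitabine. Col3a1 spanned a wider range than Col1a1, and replicate 5 of the gemcitabine group and replicate 2 of the KCL-HO-1i/gemcitabine group stood far above the rest of their groups. Its average log2 fold change was 1.81 ± 0.58 (SE), with an edgeR adjusted p of 0.0749 and 10 of 15 libraries above the mean of their counterpart group. This was 0.99 ± 0.51 (SE) without KCL-HO-1i/5-FU replicate 3 and KCL-HO-1i/gemcitabine replicate 2, and 2.33 without gemcitabine replicate 5, where the edgeR adjusted p was 0.0193.

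Col5a1, a chain of the type V fibrils that nucleate type I fibrils, stood at 20.3, 21.2, 6.16, 29.7 and 10.04 CPM in the 5 vehicle libraries, at 38.5, 27.7, 36.1, 8.47 and 37.3 with 5-FU and at 17.9, 28.6, 11.9, 18.9 and 86.5 with gemcitabine. With KCL-HO-1i, Col5a1 stood at 45.2, 43.4, 84.96, 76.97 and 9.07 CPM when given alone, at 34.1, 40.6, 116, 33.1 and 7.2 with 5-FU and at 44.4, 295, 19.003, 18.4 and 63.5 with gemcitabine. Its highest library was KCL-HO-1i/gemcitabine replicate 2. The average log2 fold change of Col5a1 was 1.21 ± 0.43 (SE), with an edgeR adjusted p of 0.0968 and 11 of 15 libraries above the mean of their counterpart group. Without the 2 highest libraries it was 0.55 ± 0.35 (SE, edgeR adjusted p = 0.451). Col5a2, its partner chain, stood at 39.3, 42.2, 15.3, 51.2 and 19.3 CPM in the 5 vehicle libraries, at 73.1, 47.2, 61.6, 30.5 and 54.7 with 5-FU and at 38.9, 47.7, 26.6, 33.4 and 161 with gemcitabine. With KCL-HO-1i, Col5a2 stood at 88.2, 83.2, 173, 147 and 23.4 CPM when given alone, at 90.2, 94.03, 635, 65.8 and 18.6 with 5-FU and at 87.8, 452, 162, 36.6 and 107 with gemcitabine. The 2 highest Col5a2 libraries were KCL-HO-1i/5-FU replicate 3 and KCL-HO-1i/gemcitabine replicate 2, and the groups overlapped. Of the 39 reported chains Col5a2 had the smallest p of the average, a log2 fold change of 1.61 ± 0.42 (SE), with an edgeR adjusted p of 0.0525 and 12 of 15 libraries above the mean of their counterpart group. DESeq2 gave it an adjusted p of 0.00629, edgeR 0.0181 without gemcitabine replicate 5 and 0.248 without the 2 highest libraries, where the log2 fold change was 0.87 ± 0.31 (SE). Over all settings tried its adjusted p lay between 0.00629 and 0.488.

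Col5a3, the remaining type V chain, stood at 4.32, 6.98, 10.99, 7.55 and 6.25 CPM in the 5 vehicle libraries, at 16.9, 6.57, 14.2, 9.77 and 12.2 with 5-FU and at 6.69, 10.3, 5.13, 9.16 and 40.8 with gemcitabine. With KCL-HO-1i, Col5a3 stood at 18.01, 21.2, 34.6, 57.5 and 3.63 CPM when given alone, at 7.76, 14.4, 50.03, 11.9 and 7.2 with 5-FU and at 19.6, 148, 14.3, 7.84 and 23.3 with gemcitabine. Within KCL-HO-1i/gemcitabine, replicate 2 was the highest by a wide margin. The average log2 fold change of Col5a3 was 1.36 ± 0.42 (SE), with an edgeR adjusted p of 0.0668 and 11 of 15 libraries above the mean of their counterpart group. Leaving out KCL-HO-1i/5-FU replicate 3 and KCL-HO-1i/gemcitabine replicate 2 gave 0.62 ± 0.32 (SE, edgeR adjusted p = 0.357). Against vehicle the log2 fold change of Col5a3 was 1.899 ± 0.738 (SE, edgeR adjusted p = 0.408) with KCL-HO-1i alone. With KCL-HO-1i/gemcitabine it was 2.56 ± 0.75 (SE, edgeR adjusted p = 0.0916), and 1.15 ± 0.56 (SE) without the same 2 libraries.

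The cartilage-type fibril chains followed another pattern over the libraries. Col2a1, the type II chain, stood at 6.48, 3.997, 0.264, 16.5 and 0.669 CPM in the 5 vehicle libraries, at 2.51, 1.95, 6.72, 14.01 and 2.96 with 5-FU and at 7.84, 11.02, 10.1, 13.2 and 0.894 with gemcitabine. With KCL-HO-1i, Col2a1 stood at 0.287, 3.06, 1.05, 2.98 and 2.8 CPM when given alone, at 154, 0.667, 103, 22.5 and 23.2 with 5-FU and at 2.74, 9.05, 33.2, 1.66 and 4.47 with gemcitabine. KCL-HO-1i/5-FU replicates 1 and 3 were the highest of the 30 libraries, while replicate 2 of the same group was near the lowest. The difference made by KCL-HO-1i was larger on top of 5-FU than on vehicle by 4.88 ± 1.48 (SE) on the log2 scale, an interaction with an edgeR unadjusted p of 0.00274 and an edgeR adjusted p of 0.420. In that interaction 0 chains passed the adjusted threshold (0.0% of all genes), 6 had an unadjusted p under 0.05 (8.53% of all genes), 4 of them higher (4.03%) and 2 lower (4.51%), and 23 had a value above 0 (50.6%). DESeq2 (0.161% of all genes) and limma-voom (0.0%) called 0. Col11a2, a type XI chain that is a partner of type II fibrils, stood at 1.97, 1.09, 2.2, 3.14 and 0.893 CPM in the 5 vehicle libraries, at 2.01, 1.46, 2.29, 16.5 and 3.11 with 5-FU and at 1.88, 2.92, 1.56, 2.87 and 1.19 with gemcitabine. With KCL-HO-1i, Col11a2 stood at 1.43, 2.46, 1.79, 6.46 and 1.9 CPM when given alone, at 34.3, 2.08, 14.97, 4.28 and 3.21 with 5-FU and at 2.15, 3.62, 27.2, 0.678 and 0.984 with gemcitabine. High values came from single libraries, 5-FU replicate 4, KCL-HO-1i/5-FU replicates 1 and 3 and KCL-HO-1i/gemcitabine replicate 3. Against vehicle, Col11a2 had one of the 2 smallest p-values with 5-FU, at 1.45 ± 0.87 (SE, edgeR adjusted p = 0.999), and was 0.26 without 5-FU replicate 4. Col11a1, the other type XI chain, ranged from 4.75 CPM in vehicle replicate 3 to 730.1 CPM in KCL-HO-1i/5-FU replicate 5.

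**Figure D3:**
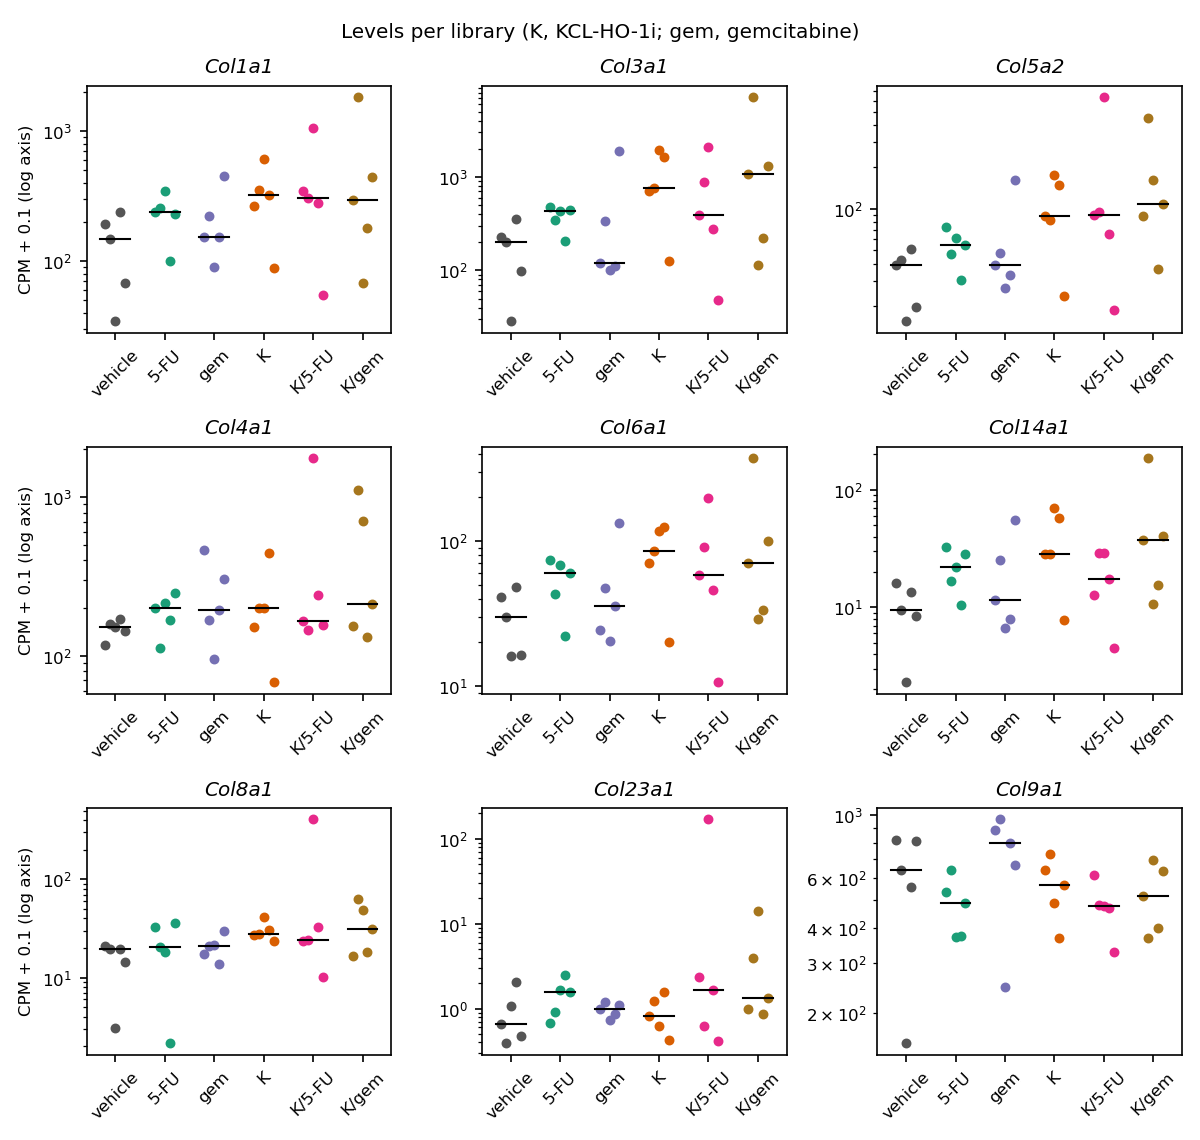
The plot of levels by library shows 9 collagen genes (Col1a1, Col3a1, Col5a2, Col4a1, Col6a1, Col14a1, Col8a1, Col23a1 and Col9a1), with CPM plus 0.1 on a log axis, 1 point per library and a line at the median of each group of 5. Treated groups overlap vehicle in every panel except Col8a1 with KCL-HO-1i alone. A single point of KCL-HO-1i/5-FU, replicate 3, stands far above the rest of its group for Col4a1, Col8a1 and Col23a1.

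Among the basement membrane chains, Col4a1 and Col4a2 encode the 2 chains of the common type IV helix and sit head to head on chromosome 8. Col4a1 lies at chr8:11198423-11312826 on the minus strand and Col4a2 at chr8:11312805-11449287 on the plus strand (GRCm38), so their start sites are 21 bases apart and the genes overlap by 22 bases. The windows from 250 bases before to 50 bases after each annotated start are shown because the pair had the highest Pearson correlation of those compared, though not the highest Spearman. The Col1a2 window is shown beside them as that of a fibrillar chain. All of these windows are from RefSeq (GRCm38.p6), which had such a window for 35 of the 44 genes. For Col1a2 the RefSeq start is at 4505618, while the gene start in the GENCODE annotation is at 4504814. The Col1a2 matches hold for the RefSeq start only. Capitals mark 3 motifs on either strand. One is CCAAT, the letters of the CCAAT box. Another is GGGCGG, the letters of the GC box, and the last is TATAAA, the letters of the TATA box.
Col4a1: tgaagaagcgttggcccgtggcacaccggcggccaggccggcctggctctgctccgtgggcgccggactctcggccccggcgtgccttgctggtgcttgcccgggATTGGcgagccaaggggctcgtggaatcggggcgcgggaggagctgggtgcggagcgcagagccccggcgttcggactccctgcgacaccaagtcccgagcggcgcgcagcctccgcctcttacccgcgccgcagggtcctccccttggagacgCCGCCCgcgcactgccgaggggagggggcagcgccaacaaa
Col4a2: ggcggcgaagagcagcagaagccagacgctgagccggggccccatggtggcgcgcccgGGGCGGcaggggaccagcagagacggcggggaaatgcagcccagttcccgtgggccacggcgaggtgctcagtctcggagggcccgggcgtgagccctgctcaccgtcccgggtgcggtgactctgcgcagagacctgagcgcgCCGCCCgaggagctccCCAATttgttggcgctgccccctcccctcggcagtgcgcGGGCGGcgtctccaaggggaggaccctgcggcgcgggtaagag
Col1a2: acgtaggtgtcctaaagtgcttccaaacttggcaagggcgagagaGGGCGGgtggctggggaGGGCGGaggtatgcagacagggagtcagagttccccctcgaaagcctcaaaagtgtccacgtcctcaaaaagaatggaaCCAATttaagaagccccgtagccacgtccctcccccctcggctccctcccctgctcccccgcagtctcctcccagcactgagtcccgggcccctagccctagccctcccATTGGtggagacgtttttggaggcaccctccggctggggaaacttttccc
Col4a1 is read from chr8:11312777-11313076 on the minus strand, Col4a2 from chr8:11312555-11312854 on the plus strand and Col1a2 from chr6:4505368-4505667 on the plus strand. The first 2 windows share 78 bases, read in opposite directions. The CCAAT letters were in all 3 windows and in 12 of the 35 collagen windows (37.4% of 32851 promoter windows). The GC box was also in all 3, and in 21 of the 35 (35.7%). The TATA box was in none of the 3 and in 5 of the 35 (13.6%). Both strands were searched, and none of the motifs contains another. A match is a string of letters and not an observed binding site.

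Col4a1 stood at 117, 159, 151, 169.7 and 143 CPM in the 5 vehicle libraries, at 199, 111, 217, 167 and 248 with 5-FU and at 464, 169, 95.6, 195 and 306 with gemcitabine. With KCL-HO-1i, Col4a1 stood at 151, 202, 200.02, 447 and 67.96 CPM when given alone, at 166, 146, 1761, 240.5 and 155 with 5-FU and at 154, 1107, 707, 130.4 and 213 with gemcitabine. The other libraries were at 464 CPM or lower, while KCL-HO-1i/5-FU replicate 3 and KCL-HO-1i/gemcitabine replicates 2 and 3 stood above them. For Col4a1 the average log2 fold change was 0.94 ± 0.37 (SE), with an edgeR adjusted p of 0.133 and 8 of 15 libraries above the mean of their counterpart group. It was 0.24 ± 0.26 (SE) without KCL-HO-1i/5-FU replicate 3 and KCL-HO-1i/gemcitabine replicate 2. Col4a2 stood at 60.1, 77.97, 83.2, 96.8 and 68.1 CPM in the 5 vehicle libraries, at 97.03, 55.7, 115, 90.4 and 122 with 5-FU and at 234, 85.1, 42.5, 105 and 143 with gemcitabine. With KCL-HO-1i, Col4a2 stood at 79.7, 103, 94.1, 240.2 and 32.4 CPM when given alone, at 87.4, 87.4, 951, 125 and 61.5 with 5-FU and at 80.8, 540.5, 374, 69.3 and 101 with gemcitabine. Its order of libraries followed Col4a1. Col4a2 had an average log2 fold change of 0.96 ± 0.38 (SE), with an edgeR adjusted p of 0.134 and 8 of 15 libraries above the mean of their counterpart group. Without the same 2 libraries as for Col4a1 it was 0.25 ± 0.28 (SE).

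Col4a5 and Col4a6, the type IV chains found under epithelia such as that of the breast, had their highest level of the 30 libraries in KCL-HO-1i/5-FU replicate 3, as Col4a1 and Col4a2 did, but were at 78.5 and 46.7 CPM, the lowest of their group, in KCL-HO-1i/gemcitabine replicate 2. Col4a5 was between 68.4 CPM (5-FU replicate 4) and 392.05 CPM (KCL-HO-1i/5-FU replicate 3), with an average log2 fold change of 0.07 ± 0.16 (SE). Col4a6 was between 8.80 CPM (5-FU replicate 4) and 221 CPM (KCL-HO-1i/5-FU replicate 3), with 0.07 ± 0.26 (SE). These 2 genes also lie head to head, on chromosome X, with start sites 1309 bases apart. Col4a4 was low, with a median of 2.76 CPM.

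Col15a1, a proteoglycan collagen that links basement membrane to the stroma beneath, stood at 17.3, 23.7, 15.04, 30.4 and 20.98 CPM in the 5 vehicle libraries, at 37.1, 17.04, 34.3, 17.3 and 32.8 with 5-FU and at 22.04, 25.9, 11.9, 22.4 and 70.1 with gemcitabine. With KCL-HO-1i, Col15a1 stood at 37.7, 42.4, 40.5, 60.5 and 11.96 CPM when given alone, at 19.6, 30.6, 63.9, 22.1 and 10.96 with 5-FU and at 35.5, 244, 18.1, 23.1 and 48.8 with gemcitabine. KCL-HO-1i/gemcitabine replicate 2 was the highest. Col15a1 had an average log2 fold change of 0.74 ± 0.34 (SE), with an edgeR adjusted p of 0.187 and 9 of 15 libraries above the mean of their counterpart group. With KCL-HO-1i/5-FU replicate 3 and KCL-HO-1i/gemcitabine replicate 2 left out it was 0.16 ± 0.25 (SE). Col18a1, the parent protein of the fragment endostatin, stood at 37.1, 43.4, 43.97, 31.7 and 39.3 CPM in the 5 vehicle libraries, at 71.5, 29.6, 58.4, 14.3 and 47.2 with 5-FU and at 142, 46.7, 39.4, 36.8 and 52.8 with gemcitabine. With KCL-HO-1i, Col18a1 stood at 38.1, 42.9, 55.1, 73.1 and 19.8 CPM when given alone, at 50.7, 52.6, 202, 78.6 and 42.3 with 5-FU and at 37.96, 145, 90.5, 35.4 and 46.7 with gemcitabine. Its highest libraries were KCL-HO-1i/5-FU replicate 3, KCL-HO-1i/gemcitabine replicate 2 and gemcitabine replicate 1. The average log2 fold change of Col18a1 was 0.44 ± 0.28 (SE), with an edgeR adjusted p of 0.346 and 10 of 15 libraries above the mean of their counterpart group. That average was 0.096 ± 0.24 (SE) without the same 2 libraries.

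Type VI collagen forms beaded filaments from chains of Col6a1, Col6a2 and 1 further chain, here chiefly Col6a3. Col6a1 stood at 40.96, 29.7, 16.01, 48.2 and 16.4 CPM in the 5 vehicle libraries, at 73.9, 43.1, 68.5, 21.99 and 60.3 with 5-FU and at 24.3, 47.4, 20.2, 35.3 and 134 with gemcitabine. With KCL-HO-1i, Col6a1 stood at 70.7, 85.5, 116, 125 and 20.1 CPM when given alone, at 58.1, 90.3, 197, 45.6 and 10.5 with 5-FU and at 69.9, 372, 29.000, 33.1 and 99.3 with gemcitabine. Vehicle replicate 3 and KCL-HO-1i/5-FU replicate 5 were among the lowest, and KCL-HO-1i/gemcitabine replicate 2 was the highest. Its average log2 fold change was 1.09 ± 0.39 (SE), with an edgeR adjusted p of 0.104 and 10 of 15 libraries above the mean of their counterpart group. With the 2 highest libraries left out it was 0.51 ± 0.33 (SE). Col6a2 stood at 38.99, 31.8, 15.8, 64.03 and 17.4 CPM in the 5 vehicle libraries, at 61.9, 38.5, 60.5, 19.8 and 66.02 with 5-FU and at 27.02, 50.4, 17.03, 36.9 and 143 with gemcitabine. With KCL-HO-1i, Col6a2 stood at 77.05, 95.02, 120.1, 131 and 23.5 CPM when given alone, at 59.5, 91.5, 170.4, 41.8 and 11.98 with 5-FU and at 82.1, 422, 37.6, 36.7 and 114 with gemcitabine. Col6a2 had the same highest library. The corresponding value of Col6a2 was 1.12 ± 0.39 (SE), with an edgeR adjusted p of 0.0961 and 10 of 15 libraries above the mean of their counterpart group. With those 2 left out it was 0.58 ± 0.34 (SE). Col6a3 stood at 24.3, 47.7, 93.2, 32.4 and 23.1 CPM in the 5 vehicle libraries, at 48.3, 33.4, 51.1, 14.8 and 36.8 with 5-FU and at 21.1, 28.97, 20.7, 28.6 and 51.8 with gemcitabine. With KCL-HO-1i, Col6a3 stood at 48.6, 49.5, 51.7, 80.5 and 13.9 CPM when given alone, at 48.5, 36.9, 83.3, 33.3 and 14.7 with 5-FU and at 36.2, 263, 14.5, 19.7 and 63.5 with gemcitabine. Col6a3 differed from its partners in vehicle replicate 3, where it had its highest vehicle value while Col6a1 and Col6a2 had their lowest. Its average log2 fold change was 0.59 ± 0.35 (SE), with an edgeR adjusted p of 0.32 and 10 of 15 libraries above the mean of their counterpart group. It was 0.045 ± 0.27 (SE) without those 2 libraries, so the average of Col6a3 rested on them. Col6a5 and Col6a6 were low, at medians of 0.379 and 0.332 CPM.

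Among the FACIT collagens, type XIV, which binds fibrils of dense stroma, had the pattern of the fibrillar chains. Col14a1 stood at 16.1, 9.3, 2.2, 13.3 and 8.26 CPM in the 5 vehicle libraries, at 32.3, 16.7, 21.8, 10.4 and 28.2 with 5-FU and at 11.4, 25.04, 6.59, 7.92 and 55.3 with gemcitabine. With KCL-HO-1i, Col14a1 stood at 28.6, 28.2, 69.3, 57.3 and 7.67 CPM when given alone, at 12.7, 28.8, 28.6, 17.2 and 4.38 with 5-FU and at 37.000, 186, 10.7, 15.4 and 40.5 with gemcitabine. Replicate 5 of KCL-HO-1i alone stood inside the vehicle range, while the other 4 stood above it. Against vehicle, Col14a1 was 1.959 ± 0.723 (SE, edgeR adjusted p = 0.387) with KCL-HO-1i alone and 2.56 ± 0.74 (SE, edgeR adjusted p = 0.0869) with KCL-HO-1i/gemcitabine on the log2 scale. DESeq2 gave the latter an adjusted p of 0.00928 and limma-voom 0.0457, and edgeR gave 1.38 without KCL-HO-1i/gemcitabine replicate 2. Col12a1, the type XII chain of tissues under tension, stood at 48.7, 54.5, 9.67, 34.01 and 28.9 CPM in the 5 vehicle libraries, at 68.2, 37.4, 61.9, 29.98 and 43.5 with 5-FU and at 96.7, 61.3, 37.99, 54.8 and 37.9 with gemcitabine. With KCL-HO-1i, Col12a1 stood at 32.9, 45.98, 79.4, 40.5 and 28.2 CPM when given alone, at 79.3, 42.6, 174, 83.1 and 43.9 with 5-FU and at 25.9, 87.9, 27.2, 42.3 and 32.7 with gemcitabine. Its highest library was KCL-HO-1i/5-FU replicate 3. With gemcitabine it was 0.72 ± 0.43 (SE) above vehicle on the log2 scale, at an edgeR adjusted p of 0.941. Col16a1, a minor fibril-associated chain, stood at 189, 122, 99.03, 139.7 and 129 CPM in the 5 vehicle libraries, at 173, 151, 181, 56.4 and 154 with 5-FU and at 279, 201, 195, 136 and 144 with gemcitabine. With KCL-HO-1i, Col16a1 stood at 169, 166, 206, 157 and 94.9 CPM when given alone, at 207, 191, 311, 169 and 222 with 5-FU and at 161, 142, 145, 96.9 and 127 with gemcitabine. Col16a1 varied less than most chains, and the libraries of gemcitabine overlapped those of vehicle. With gemcitabine its log2 fold change was 0.49 ± 0.25 (SE, edgeR adjusted p = 0.941).

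Of the type IX chains, Col9a1 and Col9a2 overlapped between vehicle and every treated group, and Col9a3 did in all but KCL-HO-1i/5-FU. Col9a1 was between 156 and 814 CPM in vehicle and between 329.8 and 728 CPM in the libraries with KCL-HO-1i alone or with 5-FU, and between 368 and 692 CPM with KCL-HO-1i/gemcitabine, with an average log2 fold change of -0.19 ± 0.19 (SE). Col9a2 was between 30.7 and 368 CPM in vehicle, with a log2 fold change of 0.57 ± 0.45 (SE, edgeR adjusted p = 0.535) under KCL-HO-1i/5-FU and -0.61 ± 0.45 (SE, edgeR adjusted p = 0.502) under KCL-HO-1i/gemcitabine. The type IX share of collagen counts was 21.5% ± 11.1 (SD, n = 5) with KCL-HO-1i/gemcitabine, where its lowest library was at 3.24%. Col9a3 stood at 172, 139, 43.01, 141 and 146 CPM in vehicle and at 240.5, 200.4, 242, 201 and 212 CPM with KCL-HO-1i/5-FU. All 5 KCL-HO-1i/5-FU libraries were above all 5 vehicle libraries, which 1.53% of all genes tested also showed in that direction and 2.07% in the other, and it was the 1 chain of 39 that did. Its log2 fold change there was 0.77 ± 0.30 (SE), with an edgeR adjusted p of 0.183. Col9a3 was named after its values were seen, and 1 chain of 39 is too few to set against such shares. Col7a1, the anchoring fibril chain, had an average log2 fold change of 0.37 ± 0.18 (SE).

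Type VIII collagen is a network collagen of the vessel wall. Col8a1, at chr16:57624258-57754737 on the minus strand, stood at 20.8, 19.3, 2.99, 19.5 and 14.4 CPM in the 5 vehicle libraries, at 32.8, 20.4, 18.3, 2.04 and 36.2 with 5-FU and at 17.4, 20.8, 21.1, 13.7 and 29.8 with gemcitabine. With KCL-HO-1i, Col8a1 stood at 27.3, 27.5, 41.3, 30.4 and 23.6 CPM when given alone, at 23.4, 23.8, 409.7, 32.4 and 9.94 with 5-FU and at 16.5, 62.4, 48.5, 17.9 and 31.4 with gemcitabine. All 5 KCL-HO-1i libraries were above all 5 vehicle libraries, which was so for 1 of the 39 chains and for 0.747% of all genes tested (0.417% were lower in all 5), and no chain separated from vehicle with 5-FU (0.315% of all genes higher and 0.366% lower), gemcitabine (0.198% and 0.161%) or KCL-HO-1i/gemcitabine (2.2% and 1.84%). The values of Col8a1 with KCL-HO-1i alone were picked after they were seen, and 1 chain of 39 is too few to set against such shares. The log2 fold change of Col8a1 with KCL-HO-1i alone was 0.96 ± 0.74 (SE), with an edgeR adjusted p of 0.788. With KCL-HO-1i/5-FU, where replicate 3 stood far above the other 4, it was 2.695 ± 0.771 (SE, edgeR adjusted p = 0.119), and 0.54 without that library. Col10a1, the hypertrophic cartilage network chain, stood at 1.13, 1.67, 0.44, 0.424 and 0.669 CPM in the 5 vehicle libraries, at 3.26, 0.649, 0.902, 0.489 and 0.371 with 5-FU and at 0.898, 0.835, 1.01, 6.52 and 0.894 with gemcitabine. With KCL-HO-1i, Col10a1 stood at 1.22, 4.1, 0.448, 0.696 and 0.165 CPM when given alone, at 1.06, 1.33, 4.67, 0.905 and 0.705 with 5-FU and at 0.593, 0.402, 0.0826, 0.829 and 0 with gemcitabine. A library at 0 counts allows up to 3 counts, which is 0.215 to 0.302 CPM here. Its change with KCL-HO-1i was lower on top of gemcitabine than on vehicle by -2.98 ± 1.22 (SE) on the log2 scale, at an edgeR adjusted p of 1.00. In this interaction 0 chains passed the adjusted threshold (0.0% of all genes) in edgeR, DESeq2 or limma-voom, and 1, Col10a1, had an unadjusted p under 0.05, lower (1.34% of all genes, 0.644% higher and 0.695% lower). The value was above 0 in 21 of the 39 (47.7% of all genes). Col16a1 had the next smallest p there, with -0.73 ± 0.36 (SE).

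The transmembrane chain Col23a1 had the widest span from lowest to highest library among the chains detected in all 30 libraries, 585-fold, next to 583-fold for Col2a1, while its SD of log2 CPM, 1.65, was below the 2.09 of Col2a1 and the 1.79 of Col3a1. Col23a1, a type XXIII chain of epithelial and neural cells at chr11:51289920-51583918 on the plus strand, stood at 0.564, 0.291, 0.967, 1.95 and 0.372 CPM in the 5 vehicle libraries, at 0.586, 0.811, 1.56, 2.36 and 1.48 with 5-FU and at 0.898, 1.09, 0.641, 0.776 and 0.993 with gemcitabine. With KCL-HO-1i, Col23a1 stood at 0.717, 1.12, 0.523, 1.49 and 0.33 CPM when given alone, at 2.26, 0.519, 170.2, 1.56 and 0.313 with 5-FU and at 0.89, 3.82, 13.9, 0.754 and 1.25 with gemcitabine. KCL-HO-1i/5-FU replicate 3 and KCL-HO-1i/gemcitabine replicate 3 were the highest 2, and the other 28 libraries were at 3.82 CPM or lower. Against vehicle the KCL-HO-1i/5-FU group was 5.39 ± 1.30 (SE, edgeR adjusted p = 0.114) on the log2 scale, and 0.49 ± 0.74 (SE) without its replicate 3. The average log2 fold change of Col23a1 was 2.30 ± 0.69 (SE), with an edgeR adjusted p of 0.0624 and 10 of 15 libraries above the mean of their counterpart group. Without KCL-HO-1i/5-FU replicate 3 and KCL-HO-1i/gemcitabine replicate 2 the average was 0.67 ± 0.43 (SE, edgeR adjusted p = 0.454). In a joint test of any difference among the 6 groups, 12 of the 39 chains had an unadjusted p under 0.05 (18.7% of all genes) and 1, Col23a1, passed the adjusted threshold (0.651% of all genes) at an edgeR adjusted p of 0.0290. Without KCL-HO-1i/5-FU replicate 3 that p was 0.157, and without vehicle replicate 2 or 5 it was 0.0516 and 0.0531. The interaction of KCL-HO-1i with 5-FU was 4.66 ± 1.69 (SE) for Col23a1 and -0.23 without KCL-HO-1i/5-FU replicate 3. Col26a1, a little-studied chain, stood at 0.47, 0.218, 0.528, 1.1 and 0.0744 CPM in the 5 vehicle libraries, at 0, 0.649, 0.492, 3.67 and 3.04 with 5-FU and at 0, 0.334, 0.275, 0.621 and 0.894 with gemcitabine. With KCL-HO-1i, Col26a1 stood at 0.359, 1.19, 0.971, 0.796 and 0.33 CPM when given alone, at 0.452, 1.19, 1.15, 0.576 and 0 with 5-FU and at 0.519, 2.51, 0.248, 0.754 and 0.805 with gemcitabine. These values are near the floor of detection. With 5-FU it was 1.71 ± 0.92 (SE, edgeR adjusted p = 0.999) on the log2 scale.

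**Figure D4:**
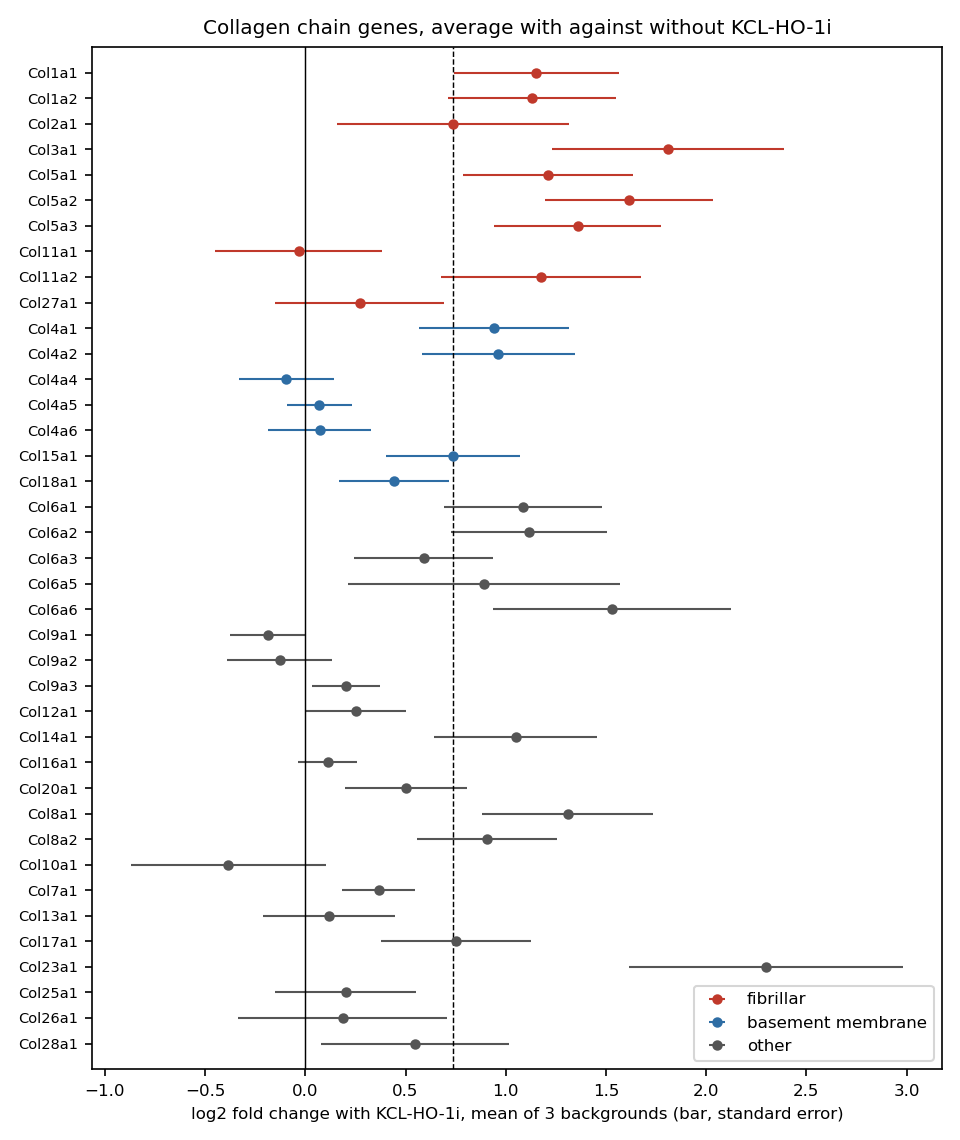
The plot of average fold changes gives, for each of the 39 reported collagen genes, the edgeR log2 fold change with against without KCL-HO-1i averaged over 3 backgrounds, with its standard error as a bar, colours for the 3 classes and a dashed line at the median of 0.74. Points run from -0.38 for Col10a1 to 2.30 for Col23a1, and no gene passed an adjusted p of 0.05.

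The 3 highest correlations from library to library, among the pairs compared, were between chains of the same helix. Correlations of log2 CPM were computed over the 30 libraries for 8 pairs and for 4 added pairs, which share the depth scaling of each library. Col4a1 and Col4a2 had a Pearson r of 0.994 (Spearman 0.968), and their ratio stayed between 1.67 and 2.53 with a median of 1.956. Col6a1 and Col6a2 had 0.989 (Spearman 0.986) and Col1a1 and Col1a2 0.985 (Spearman 0.982). Col1a1 with Col3a1 had 0.940 (Spearman 0.939) and Col5a1 with Col5a2 0.913 (Spearman 0.910). For these 5 pairs each permutation p was 1e-05, the smallest that 100000 permutations can give. After adjustment over the 8 pairs the permutation p was 1e-05 for Pearson and 2e-05 for Spearman. After subtracting group means the r of the 5 pairs lay between 0.903 and 0.993, and without the 2 libraries farthest from the median of the first gene between 0.881 and 0.987.

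The other 3 of the 8 pairs were looser. Col6a1 with Col6a3 had a Pearson r of 0.767 (Spearman 0.758, permutation p 1e-05 and 2e-05) and 0.648 without the 2 farthest libraries. Col8a1 with Col8a2 had 0.803 (Spearman 0.584, permutation p 3.00e-05 and 0.000990) and 0.720 without the 2 farthest. Col1a1 with Col4a1, a fibrillar against a basement membrane chain, had 0.519 (Spearman 0.488, permutation p 0.00347 and 0.00667), 0.394 without the 2 farthest and 0.167 without KCL-HO-1i/5-FU replicate 3 and KCL-HO-1i/gemcitabine replicate 2, so that relation rests on those libraries. The ratio of Col5a1 to Col5a2 had a median of 0.509 and was as low as 0.118 in KCL-HO-1i/gemcitabine replicate 3 and 0.182 in KCL-HO-1i/5-FU replicate 3. Among the 4 added pairs, Col9a1 with Col9a2, partners in type IX, had a Pearson r of 0.669 (Spearman 0.374). It was 0.339 without the 2 farthest libraries. Col9a1 with Col9a3 had 0.525 (Spearman 0.215) and 0.200 without the 2 farthest. Col4a5 with Col4a6 had 0.806 (Spearman 0.868), and Col9a1 with Col1a1 had 0.185 (Spearman -0.054).

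**Figure D5:**
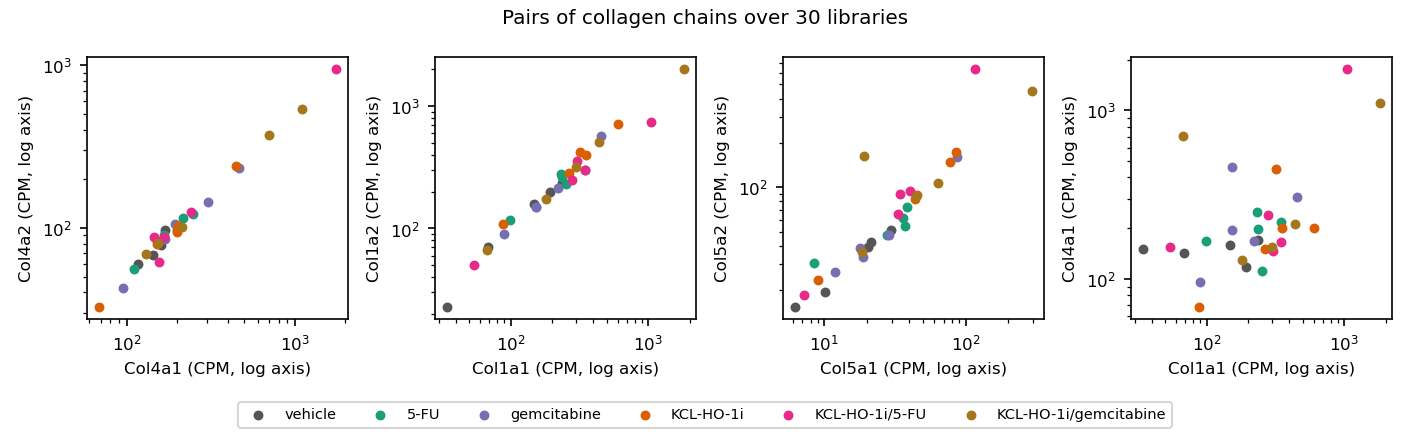
The scatter plots of chain pairs show CPM of 1 chain against another on log axes for the 30 libraries, coloured by group. Col4a1 and Col4a2 lie on a narrow line with ratios of 1.67 to 2.53, 2 libraries with KCL-HO-1i lie above the line of Col5a1 and Col5a2, and the points of Col1a1 and Col4a1 scatter widely.

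Ranked by Spearman correlation with Col1a1 over the 30 libraries, the chains after Col1a2 (0.982) were Col6a1 (0.943), Col3a1 (0.939), Col5a1 (0.931), Col6a2 (0.923) and Col14a1 (0.872). The type IX chains lay near 0 in that order, with -0.05 for Col9a1 and -0.04 for Col9a3, as did Col4a5 (-0.13), Col4a6 (-0.07) and Col11a1 (-0.12). Outside the collagens the 5 genes most like Col1a1 were Ctsk (0.954), Cpxm1 (0.943), Bicc1 (0.940), Tspan11 (0.939) and Slit3 (0.925). These coefficients describe the 30 libraries and carry no test.

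Genes that make, trim and bind collagen were read from 5 lists, and in the average with against without KCL-HO-1i 0 of their genes passed the edgeR adjusted threshold. Of 21 genes for synthesis and secretion, 5 were higher and 1 was lower at an unadjusted p under 0.05, with a median log2 fold change of 0.08, against 13.7% and 9.22% of all genes. The 2 smallest p-values were those of P3h3, a prolyl hydroxylase family member, at 1.08 ± 0.30 (SE, edgeR adjusted p = 0.0558), and of Sparc, a collagen-binding matricellular protein, at 1.20 ± 0.35 (SE, edgeR adjusted p = 0.0593). Of 12 tested genes for processing and crosslinking, 6 were higher and 0 lower with a median of 0.93, led by Adamts2, which removes the amino-terminal propeptide, at 1.44 ± 0.38 (SE), and Pcolce, which speeds removal of the carboxy-terminal one, at 1.56 ± 0.44 (SE). All 4 fibril-associated proteoglycans of the list were higher at that level, among them Bgn at 1.34 ± 0.39 (SE) and Lum at 1.92 ± 0.58 (SE). Of 9 tested receptors 4 were higher, including the collagen-uptake receptor Mrc2 at 1.80 ± 0.50 (SE) and the collagen-binding kinase Ddr2 at 1.42 ± 0.47 (SE), and of 15 other basement membrane proteins 3 were, including Lama2 at 1.23 ± 0.42 (SE) and Nid1 at 1.20 ± 0.43 (SE). With the 2 libraries of lowest luminal level left out the numbers higher were 3 for synthesis and secretion, 3 for processing and crosslinking, 3 for the proteoglycans, 1 for the receptors and 0 for the other basement membrane proteins, against 7.18% of all genes. P3h3 was then at 0.56 ± 0.19 (SE), Sparc at 0.61 ± 0.26 (SE), Mrc2 at 0.51 ± 0.26 (SE) and Nid1 at 0.42 ± 0.33 (SE).

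Markers of several other cell types were higher in the same average. At an unadjusted p under 0.05, 7 of 7 fibroblast genes were higher, 8 of 8 adipocyte genes, 8 of 8 skeletal muscle genes, 4 of 6 endothelial genes, 2 of 5 pericyte and smooth muscle genes and 4 of 4 macrophage genes, with none lower, and of 5 luminal genes 0 were higher and 1 was lower. Epidermal and cartilage lists had 2 tested genes of 5 each and 0 higher or lower. Summed fibroblast levels were 64.6 to 297 CPM in vehicle, 156 to 899 CPM with KCL-HO-1i, 135 to 3168 CPM with KCL-HO-1i/5-FU and 224 to 2392 CPM with KCL-HO-1i/gemcitabine, against 105 to 555 CPM with 5-FU and 153 to 920 CPM with gemcitabine. Skeletal muscle sums reached 10921 CPM in KCL-HO-1i/gemcitabine replicate 2, which also had the highest adipocyte sum, 7819 CPM, and the highest endothelial sum, 453 CPM. In vehicle the adipocyte sum was at most 383 CPM and the endothelial sum 89.2 CPM, and the skeletal muscle sum had a median of 9.33 CPM. KCL-HO-1i/gemcitabine replicate 3, high in Col4a1 and Col23a1, had the highest pericyte and smooth muscle sum, 858 CPM, against 128 to 233 CPM in vehicle. No marker was at 0 in every library. Without KCL-HO-1i/5-FU replicate 3 and KCL-HO-1i/gemcitabine replicate 2, 3 of 7 fibroblast genes, 3 of 8 skeletal muscle genes, 2 of 5 pericyte and smooth muscle genes and 3 of 4 macrophage genes were higher at that level (7.18% of all genes), 0 of the adipocyte and endothelial genes were, and 1 luminal gene was lower (7.51% of all genes). The part of these markers in the collagen differences was not tested.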

How the data were processed

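Bulk RNA from 30 tumours was measured by the authors, who used the NEBNext Ultra II Directional kit, FastQC 0.11.9, STAR 2.7.9a, Salmon 1.9.0 and tximport on mm10 per the labels and processing notes; the annotation release is not given in the sources used here. The deposited values are expected counts per gene, estimated by the authors with Salmon and not normalized, and were rounded to whole numbers. Salmon shares reads among similar transcripts, so counts of related or overlapping genes carry that uncertainty.

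The 6 groups follow the labels. Library totals of 10067577 to 13622264 counts set the counting precision, and 3 counts equal 0.215 to 0.302 CPM. No 2 libraries were duplicates within sampling noise. The main test was edgeR 4.0.16 (quasi-likelihood, TMM, filterByExpr by group, 6 group means over all 30 libraries, R 4.3.3), with Benjamini-Hochberg adjustment over 13663 genes at 0.05. Alternatives were RLE scaling, DESeq2 1.42.0, limma-voom 3.58.1 (sample quality weights), testing genes without any filter or only those averaging 50 or more counts, blocking on the replicate number, the leading number of the sample code as a factor, only the 2 groups compared and each library left out. Leaving out KCL-HO-1i/5-FU replicate 3 and KCL-HO-1i/gemcitabine replicate 2 together, called both highest libraries below, was added after seeing the data. The values of Col9a3 and of Col8a1 with KCL-HO-1i alone were also added then. Scripts were tested on simulated data.

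Members and lists were chosen with earlier results of these data known. Genes named with every library's value were 12 chains fixed by role and further chains of smallest p. The 12 were Col1a1, Col1a2, Col3a1, Col5a1, Col5a2, Col4a1, Col4a2, Col6a1, Col6a2, Col6a3, Col15a1 and Col18a1. In each comparison the 2 chains of smallest p were taken, with the fixed chains not excluded. For the average with against without KCL-HO-1i the next chain was taken as well. Lengths and GRCm38 coordinates came from GENCODE and promoter windows from RefSeq.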

Additional observations from a re-analysis of the deposited data

Results flagged for a closer look

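Within groups of 5, the gap of the highest or lowest library to its neighbour exceeded Dixon's critical ratio of 0.71 in 39 of 132 gene-by-group values. Chance gives about 1 in 20 where values are normally distributed, which CPM are not. On log2(CPM + 1) the number was 14. The chains are not independent, since the same libraries recur. All values are CPM.

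KCL-HO-1i/gemcitabine replicate 2 stood above its group in 12 chains. These were Col1a1 at 1825, Col1a2 at 2015, Col3a1 at 7142, Col5a1 at 295, Col5a3 at 148, Col6a1 at 372, Col6a2 at 422, Col6a3 at 263, Col12a1 at 87.9, Col14a1 at 186, Col15a1 at 244 and Col26a1 at 2.51. Gemcitabine replicate 5 stood above its group in 9, with Col1a2 at 570, Col3a1 at 1911, Col5a1 at 86.5, Col5a2 at 161, Col5a3 at 40.8, Col6a1 at 134, Col6a2 at 143, Col6a3 at 51.8 and Col15a1 at 70.1. KCL-HO-1i/5-FU replicate 3 did so in 8, with Col4a1 at 1761, Col4a2 at 951, Col5a2 at 635, Col5a3 at 50.03, Col8a1 at 410, Col10a1 at 4.67, Col18a1 at 202 and Col23a1 at 170.

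KCL-HO-1i/gemcitabine replicate 3 stood above its group for Col2a1 at 33.2, Col11a2 at 27.2 and Col23a1 at 13.9. In 5-FU replicate 4, Col11a2 was high at 16.5 and Col16a1 was low at 56.4. The remaining 5 were Col10a1 at 3.26 in 5-FU replicate 1, at 6.52 in gemcitabine replicate 4 and at 4.10 in KCL-HO-1i replicate 2, Col11a2 at 6.46 in KCL-HO-1i replicate 4, and Col18a1 at 142 in gemcitabine replicate 1.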

How the results depend on the processing

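Counts of collagen chains at an unadjusted p under 0.05, of 39, moved as follows, and the cause was not tested. Shares of all genes at that level are not given for these settings, so the counts cannot be set against a background. The exception is the average without both highest libraries, with 7.18% of all genes higher and 7.51% lower. With limma-voom the counts were 3 (5-FU), 1 (gemcitabine), 6 (KCL-HO-1i/5-FU), 6 (average with against without KCL-HO-1i) and 3 (interaction with gemcitabine). With only the 2 groups compared they were 2 for 5-FU and 1 for gemcitabine. With the leading number of the sample code as a factor, which is nearly confounded with treatment, they were 0 with KCL-HO-1i alone, 0 when 5-FU was added and 2 when gemcitabine was added. In that setting they were 3 for the average, 1 for the interaction with 5-FU and 0 for that with gemcitabine. Without both highest libraries they were 5 for the 5-FU combination, 7 for the gemcitabine combination, 3 for the average and 5 for the interaction with gemcitabine. That interaction gave 2 with RLE scaling, DESeq2 or no filter. With the replicate number as a block they were 4 for KCL-HO-1i, 11 for the average and 2 for the interaction with gemcitabine; the numbers do not pair the libraries (mean correlation of deviations 0.0028 over 75 same-number pairs, lowest -0.58).

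Adjusted calls were 4 for KCL-HO-1i/5-FU, 10 for KCL-HO-1i/gemcitabine and 7 for the average with DESeq2, and 4 for KCL-HO-1i/gemcitabine with limma-voom. The joint test of the 6 groups called 6 chains with DESeq2 and 0 with limma-voom, the block, the sample code or both highest libraries left out. Shares of all genes are not given for the joint test in these settings.

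Leaving out each library in turn gave 0 to 1 adjusted calls for KCL-HO-1i/5-FU (1 without its replicate 4, Col23a1), 0 to 9 for the average (9 without gemcitabine replicate 5), 0 to 2 for the joint test and 0 for the other comparisons. At an unadjusted p the ranges were 0 to 1 for 5-FU, 0 to 2 for gemcitabine, 2 to 10 with KCL-HO-1i alone, 5 to 21 for its 5-FU combination, 3 to 19 for its gemcitabine combination, 10 to 19 for the average, 3 to 7 for the interaction with 5-FU and 0 to 3 for that with gemcitabine.

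Signs turned with the sample code, a setting nearly confounded with treatment, for Col10a1 (interaction with gemcitabine, 0.99), Col11a2 (5-FU, -1.05), Col12a1 and Col16a1 (gemcitabine, -0.38 and -0.34) and Col23a1 (average, -0.40). The Col23a1 interaction with 5-FU was -0.041 with limma-voom, -0.23 without both highest libraries and -0.23 to 4.99 over single libraries left out. Apart from single libraries left out, there were 458 alternatives for single values, the turned signs among them. Of these, 436 were counted as unchanged, 10 came to pass the threshold, 7 changed sign and 5 moved. For a fold change, unchanged means only that its sign and its side of the threshold were kept, and for a correlation its sign. No fold change of a single chain passed in the main test, so none could be lost. Fold changes and correlations that shrank far are among the 436, so that number does not show that their sizes held. The 458 include medians, correlations and group mean levels, which have no side of the threshold. Levels under RLE scaling were 0.985 to 1.027 times those under TMM, so those means could hardly move. Depth limits Col10a1, Col23a1 and Col26a1, which lie near 3 counts in several libraries.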
